A study of Mus musculus with 8 samples.

Results

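The comparison set the control hairpin line after 24 h of induction against the same line before induction. It holds 4 of the 8 arrays in the series, 2 at each time, and the arrays were chosen by their labels alone. The line is C10, a mouse pre-B cell line descended from HAFTL cells (fetal liver cells transformed with the Ha-ras oncogene) engineered with C/EBPα, a transcription factor of myeloid cells, in a form that can be switched on. It also expresses a control short hairpin RNA and was grown in medium with puromycin at both times. At 0 h the cells were uninduced. For the 24 h samples they were induced in that medium with bEstradiol at 100 nM, together with the cytokines IL-3 and M-CSF at 10 ng/ml each. Hormone, cytokines and time therefore changed together, so that none of the changes is attributable to C/EBPα by itself. The 4 arrays of a second C10 line, which carries a hairpin against Tet2, entered the fit for its estimate of spread and are not described. The 2 arrays of a group are technical duplicates, so p-values and standard errors cover only how much duplicate arrays differ, which leaves out variation among cultures.

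A pre-B cell is a B lymphocyte precursor that divides rapidly under interleukin-7, expresses the recombinase that cuts its immunoglobulin genes, and assembles the heavy chain with a surrogate light chain into the pre-B receptor. C/EBPα, which is normally made in the granulocyte and macrophage branch of blood formation, acts with the ETS factor PU.1 on myeloid genes, and its forced expression in B lineage cells turns them into macrophage-like cells. Macrophages take up particles through Fc, lectin and scavenger receptors, degrade them in acid lysosomes, secrete proteases and cytokines, and usually do not divide.

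Levels are given as log2 of a probe's signal relative to the array's 75th percentile, so each level can be compared between arrays and never between genes. Changes are the difference in level, 24 h minus 0 h, with the standard error of the fit (n = 2 arrays a group). The error pools the spread of duplicates in all 4 groups of the series. A gene was called higher or lower where limma's adjusted p was under 0.05 and the change at least 2-fold. Of the 16145 genes tested, 2281 were called higher (14.1%) and 2121 lower (13.1%), and the median change over all genes was -0.00. When each array was scaled to its median signal, that median moved to -0.11. The fitted change was at least 8-fold for 418 of the genes called higher and 349 of those called lower, and at least 64-fold for 107 and 4. Throughout, above background means flagged as well above background on an array. Below background, or dim, means not flagged so, which is not an absence of signal. Of the called genes, 308 of those that rose were below background on both arrays at 0 h and not at 24 h. Among those that fell, 377 were below background on both arrays at 24 h and not at 0 h, and 32 called genes were so on all 4 arrays. Genes dim at one time have their fold written as at least, here called a bound. For it, a dim level under the lowest signal that counted as well above background on its array was raised to that signal. A dim level already above that signal was kept, so that a bound can equal the fitted change. It did so for Emilin2 (log2 change 10.54) and Fanci (-5.52), among others. These bounds are therefore not strict lower limits. With genes dim at one time held to their bounds, 344 rose and 289 fell at least 8-fold, and 83 rose and 1 fell at least 64-fold.

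**Figure D1:**
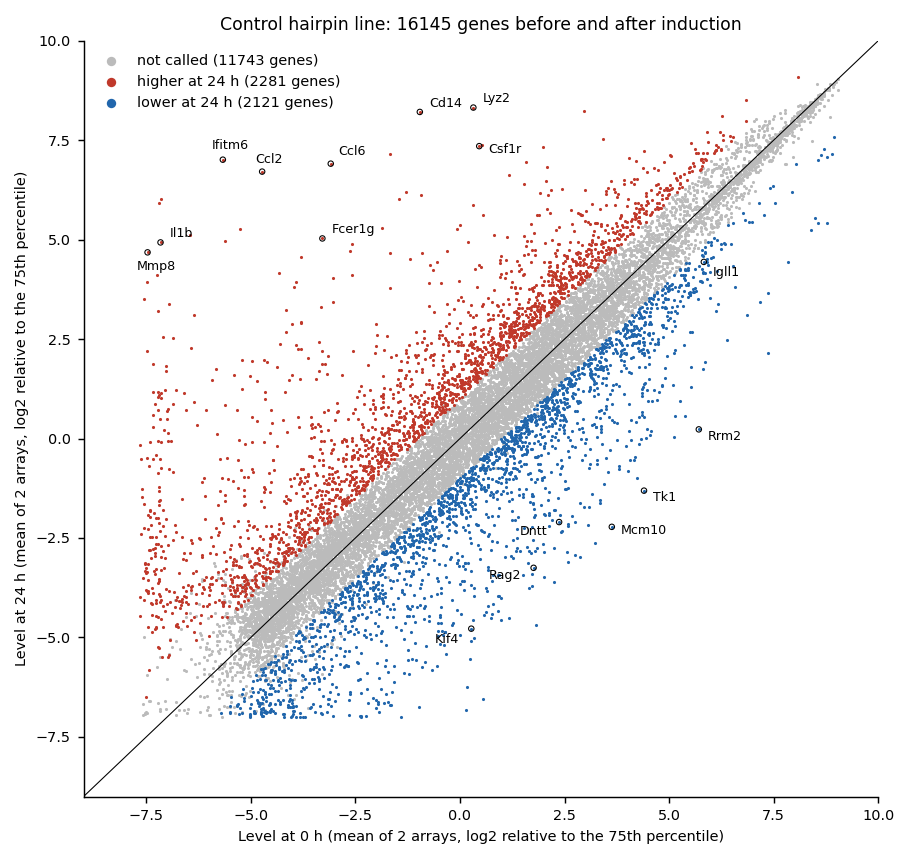
Mean level of each of the 16145 genes at 0 h (horizontal axis) and at 24 h (vertical axis), both as log2 relative to the array's 75th percentile over 2 arrays, with the diagonal marking no change. The 2281 red genes rose and the 2121 blue genes fell; Ifitm6, Il1b and Mmp8 lie at the far left at levels below background at 0 h, and Kif4 lies at a level below background at 24 h.

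The duplicates of the control line agreed closely, with correlations over genes of 0.994 at 0 h and 0.993 at 24 h. Between duplicates, 599 of 16139 genes differed at least 2-fold at 0 h and 693 at 24 h. Both arrays at 24 h lay on the same side of both arrays at 0 h for all 4402 called genes, but also for 12681 of all genes tested, so that this separation alone says little. Between 47.4% and 51.9% of spots on the 4 arrays were well above background, and none was saturated.

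The labelled cell types were checked against marker genes. Of 22 pre-B identity markers, 19 were tested and all 19 were above background at 0 h, among them Cd79a, Vpreb1, Rag1 and Igll1. All 19 were above background at 24 h as well, so that this count does not tell the times apart. A marker was tested only where it was bright on both arrays of some group. The summed signal of these 19 markers was 954 and 890 at 0 h and 497 and 466 at 24 h, in multiples of the 75th percentile. Of 24 markers of tissue macrophages and monocytes, 11 passed the filter on dim probes, and of these 8 were above background at 0 h and all 11 at 24 h. Those dim at 0 h could pass only through groups where they were bright. Their rise was thus favoured by the filter and does not bear on the label. Of the 11, 9 rose and none fell, and the summed signal of the 11 went from 9.68 and 9.86 to 343 and 319. The rising ones included Mpeg1 (perforin-2, 7.06 ± 0.09), Csf1r (the M-CSF receptor, 6.90 ± 0.20), Ccr2 (the receptor by which monocytes leave the marrow, 5.46 ± 0.08) and Fcgr1, which rose at least 73.9-fold. Several defining markers of mature resident macrophages did not pass the filter on dim probes, among them Adgre1 (F4/80), Mertk, C1qa, Timd4 and Vsig4, and Mrc1, with a change of -0.18, was not called. Macrophage-like is therefore used here for the monocyte-type genes that rose, and not for a resident macrophage profile. In a bulk extract, fewer cells of a type and less RNA per cell cannot be told apart.

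Of 98 entries in 6 lists of markers of other lineages, 42 passed the filter on dim probes. The T cell genes Cd3d, Cd3g and Cd8a and the mast cell genes Cpa3 and Fcer1a were not well above background on both arrays of any group. The same held for the erythroid genes Gata1 and Klf1 and the epithelial genes Epcam and Krt8. Of 19 T and NK cell markers, however, 12 passed the filter, among them Cd3e and Lck. Of these 12, 11 were above background at 0 h and 11 at 24 h. The summed T and NK cell signal ranged from 23.3 to 23.5 at 0 h and from 22.8 to 23.8 at 24 h. In that list 4 markers were called higher, Cd4 at 1.33 ± 0.32, Gata3 at 1.08 ± 0.06 and Nkg7 at 1.00 ± 0.16, with Klrb1c dim at both times, and Zap70 fell by 1.55. Another probe for Cd4 read 0.02. The calls of Cd4 and Nkg7 were lost without a single array, Cd4 at 0.99 and Nkg7 at 1.0 without the second array at 24 h, and those of Gata3 and Nkg7 on the deposited table (0.70 and 0.86). The 6 erythroid and megakaryocyte markers that passed were all above background at 0 h, and their summed signal went from 24 and 21.8 to 12.1 and 11.8; Gfi1b fell by 1.59, Gp9 rose by 1.61 and Pf4 (-0.98) was not called. The summed signal of 7 dendritic cell markers was 43.5 and 49.5 at 0 h and 49.8 and 48 at 24 h, and Itgax and Clec9a rose at least 28-fold and at least 7.2-fold from below background. That of 10 stem and progenitor markers was 45.3 and 41.2 at 0 h and 39.1 and 37.9 at 24 h, with Ly6a (4.44), Lmo2 (1.45) and Prom1 (at least 8.42-fold) higher and Tal1 lower. The summed signal of the 5 stromal and endothelial markers that passed went from 3.82 and 4.82 to 15.3 and 16.2. Sparc, a secreted matrix glycoprotein, stood at -0.67 and -0.82 at 0 h and 3.34 and 3.31 at 24 h, Acta2 and Pdgfrb rose at least 12.5-fold and at least 9.87-fold from below background, and Col1a1, Col3a1, Dcn and Cdh5 were dim throughout. The part of other cell types in these values was not tested. Among 15 reference genes, 12 were not called; Pgk1 and Gusb rose and Tfrc, the transferrin receptor of growing cells, fell by 1.63.

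The largest rises among genes above background at both times belonged to chemokines and to the recognition and signalling apparatus of phagocytes. Ccl2, the chemokine that draws monocytes into tissue (probe at chr11:81850650-81850709, mm9), stood at -4.85 and -4.61 at 0 h and 6.75 and 6.68 at 24 h, a 2786-fold rise. Cd14, the co-receptor that hands lipopolysaccharide to TLR4 (chr18:36884969-36885028), stood at -0.90 and -1.02 at 0 h and 8.30 and 8.11 at 24 h, a 576-fold rise. Lyz2, the macrophage lysozyme (chr10:116719175-116719234), stood at 0.37 and 0.27 at 0 h and 8.28 and 8.35 at 24 h. In each of these genes the duplicates lay close together, low at 0 h and high at 24 h, with no overlap. Ccl6, another monocyte chemokine, rose 1020-fold (9.99 ± 0.09), and Tyrobp and Fcer1g, the small adaptors through which Fc and lectin receptors signal, rose 450.4-fold and 320.4-fold. Fcer1g has a wider error (8.32 ± 0.39) than its own duplicates show (-3.46 and -3.12 at 0 h and 5.11 and 4.95 at 24 h), because the error also draws on the other line. On the deposited value table, made with an offset that compresses low levels, the change of Ccl2 was 9.82 in place of 11.44, while Cd14 (9.08) and Lyz2 (7.97) differed little. Of 341 genes chosen by the naming rule, 131 had a fold on that table that was over 1.5 times smaller, and 76 of these were below background at one time.

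The remaining rises of this size were varied. Mmp13 is a collagenase (357-fold), Tgfbi a matrix protein induced by TGF-β (331-fold), Vsir an inhibitory receptor of the B7 family (220.0-fold) and P2ry6 a receptor for extracellular UDP (163-fold). Socs3, which shuts off cytokine receptor signalling through JAK kinases, rose 180.3-fold, and Cd74, the invariant chain of MHC class II, rose 179-fold. Slc2a6, a sugar transporter of the GLUT family, stood at -1.47 on the array kept at 0 h and 6.01 and 6.0 at 24 h; the other array at 0 h was left out as an outlier spot, so this 178-fold rise rests on 3 arrays. Probes disagreed for 2 of the 15: the probe standing for Atf7 rose 235-fold while another read -0.02, and that for Marchf1 rose 169-fold while another read -0.42. This other Marchf1 probe holds a cytosine-adenine repeat of 12 bases, a class of probes described at the end.

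**Figure D2:**
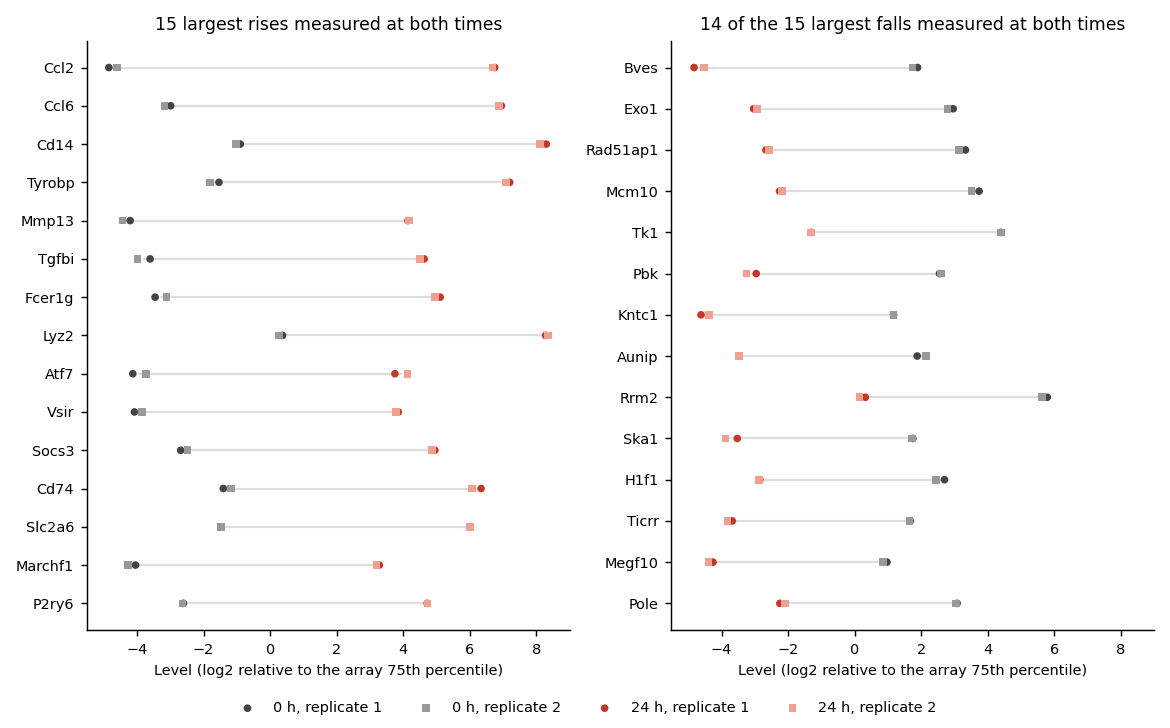
Level on each of the 4 arrays (log2 relative to the array's 75th percentile) for the 15 genes with the largest rise and 14 of the 15 with the largest fall among named genes above background on at least 1 array at both times. Grey marks are 0 h and red marks 24 h; the replicate marks nearly coincide, and Ccl2 runs from -4.85 and -4.61 to 6.75 and 6.68.

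A second set of genes was below background on both arrays at 0 h and bright at 24 h. Ifitm6, an interferon-induced membrane protein (chr7:148201714-148201773), stood at -5.35 and -5.99 at 0 h and 7.04 and 6.97 at 24 h, a rise of at least 4935-fold. Il1b, the proinflammatory cytokine interleukin-1β, stood at -7.35 and -6.97 at 0 h and 4.95 and 4.92 at 24 h, a rise of at least 1223-fold. Camp, the cathelicidin peptide of neutrophil granules, stood at -5.95 and -5.30 at 0 h and 5.06 and 4.86 at 24 h, a rise of at least 1248-fold. All 3 were dim on both arrays at 0 h and bright on both at 24 h. The other genes chosen by the same rule were Ifitm1 (at least 2576-fold), the elastin-associated glycoprotein Emilin2 (at least 1487-fold), the haemoglobin scavenger Hp (at least 1379-fold), the neutrophil collagenase Mmp8 (at least 1028-fold), the inhibitory receptor Lilrb4a (at least 689-fold), Igsf6 (at least 609.7-fold) and Ifi202b (at least 458-fold). Folds of this kind depend on the floor of the array and rank genes only loosely.

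Over 7 lists of transcription factors of myeloid cells, 41 of 90 tested members rose and 5 fell. Over all genes tested, 14.1% were called higher and 13.1% lower. Among C/EBP factors, 5 of 7 passed the filter, and Cebpd and Cebpb rose while Cebpg (-0.67), Cebpz (-0.88) and Ddit3 (0.20) were not called. Cebpb stood at 1.70 and 1.74 at 0 h and 4.68 and 4.79 at 24 h, an 8.09-fold rise, and Cebpd at 0.68 and 0.43 at 0 h and 5.66 and 5.56 at 24 h, a 33.3-fold rise. Both times were well separated for the pair. The probes for Cebpa and Cebpe themselves were not well above background on both arrays of any group, so these arrays do not show the introduced factor. Of 16 AP-1 and ATF factors, 8 rose and none fell. Fosl2 stood at -4.42 and -4.32 at 0 h and 1.79 and 1.84 at 24 h and Fos at -4.62 and -4.72 at 0 h and 1.00 and 0.98 at 24 h, rises of 72.6-fold and 50.6-fold, whereas Jund (0.54), Fosb (0.10) and Atf4 (-0.67) were not called. Nfe2, the haematopoietic partner of the small Maf proteins, rose 20.1-fold, and the oxidative stress factor Nfe2l2 (NRF2) rose 3.2-fold.

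Of 21 myeloid fate factors 18 were tested, 11 rose and 2 fell. Id2, an inhibitor of E proteins (13-fold), and Bhlhe40 (12.6-fold) rose, and Id1 and Tfec rose at least 24.8-fold and at least 10-fold from below background. The fallers were Tal1, a stem cell and erythroid factor that fell by 1.43, and Mitf, whose fall to below background (adjusted p 0.038 by limma) was lost under 8 of the alternatives tried. Spi1, which encodes PU.1 and was looked up after the values were seen, stood at -1.15 and -1.25 at 0 h and 0.69 and 0.66 at 24 h and rose 3.67-fold. Kruppel-like factors rose in 4 of 8 cases, led by Klf7 (3.97-fold), while Klf4 was not well above background. Of 16 IRF and STAT factors 9 rose, among them Stat3 (4.36-fold), which carries signals of the IL-6 family, Stat4 (4.74-fold), Irf9 (6.16-fold) and Irf7 (at least 14.8-fold). Irf4, a factor of B cell and plasma cell stages, fell by 1.91, and Irf8 (0.64), Stat5a (-0.07) and Stat5b (0.03) were not called. Among nuclear receptors the retinoic acid receptors Rarg and Rara rose 30.7-fold and 4.25-fold. Of the 20 tested 3 rose (15%) and 2 fell (10%), shares near those over all genes, and 15 were not called.

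Receptor chains for both cytokines of the induction medium rose. Csf1r stood at 0.16 and 0.75 at 0 h and 7.43 and 7.28 at 24 h, a 119-fold rise, with the lower array at 24 h far above the higher one at 0 h. Csf2rb and Csf2rb2, the shared and the IL-3-specific signalling chains of the IL-3 receptor, rose 16.8-fold and 15.7-fold, and Csf2rb stood at 2.22 and 2.11 at 0 h and 6.35 and 6.13 at 24 h. The sequences of these 2 genes are nearly identical, so their probes may share signal. Il1r2, a decoy receptor that binds interleukin-1 without signalling, rose 36.6-fold. Over the whole list 19 of 26 receptors rose, none fell and the median change was 1.86. Il15ra, 1 of the 19, stands on a probe with a guanine-thymine repeat, a kind of probe that rose as a class (described at the end). Csf3r (-0.61), the G-CSF receptor, and Flt3 (0.63) were not called.

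Feedback inhibitors of cytokine signalling rose in part. Socs3 stood at -2.69 and -2.49 at 0 h and 4.95 and 4.86 at 24 h, with no overlap between times. Cish, an inhibitor induced by STAT5, was above background on 1 of 2 arrays at 0 h and rose 38-fold (5.25 ± 0.34), and Socs1 rose 8.76-fold. Socs2 (-0.81), Socs6 (-0.31) and 6 others of the 13 were not called, and the list's median was 0.39. Among phosphatases of MAP kinases and regulators of G proteins, Rgs18 rose 21.3-fold and Dusp1 rose 5.01-fold, while Dusp2 and Dusp4 each fell by 1.64. Of 18 NF-κB genes 6 rose, among them the inhibitors Nfkbia (2.67-fold) and Tnfaip3 (2.78-fold) and the co-activator Bcl3 (at least 38.8-fold), while the subunits Rela (0.63), Relb (0.69) and Nfkb1 (-0.95) were not called.

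Most genes of the phagocyte surface rose. Of 19 Fc receptors and ITAM adaptors, 15 were tested and 14 of them rose, with a median change of 3.21; Hcst (0.93) was the exception. Fcgr1, the high-affinity receptor for IgG, stood at -7.21 and -7.37 at 0 h and 0.96 and 0.81 at 24 h, below background at 0 h and above it at 24 h. Pilra, a receptor for sialylated proteins, rose at least 346-fold. The inhibitory receptors that counter these signals rose as well in 7 of 13 cases, including Cd33 (at least 417-fold) and Pirb (at least 67.5-fold), whereas the B cell members Cd22 (0.38) and Siglecg (0.06) were not called and Cd72 fell by 1.03. Without the second array at 24 h Cd72 read -0.99, short of 2-fold.

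Toll-like receptors and adaptors rose in 17 of 21 cases and fell in none. Tlr2, which recognises bacterial lipopeptides, stood at -0.42 and -0.48 at 0 h and 3.89 and 3.91 at 24 h, a 20.4-fold rise. Tlr13, a sensor of bacterial ribosomal RNA, rose at least 38.1-fold, and Nod1 rose at least 7.91-fold. Tlr4 itself was just short of the 2-fold threshold (0.96 ± 0.07) and Tlr9, the receptor for DNA, was at 0.19. C-type lectins rose in 10 of 13 cases, led by Clec4d (at least 142-fold), a receptor for mycobacterial glycolipid, and Mgl2 fell by 1.89. Of 17 scavenger receptors only 8 passed the filter; Cd36 rose 25.5-fold, Cd68 13.1-fold and Msr1 at least 6.43-fold, and Marco, Cd163 and Mertk were dim.

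Receptors for chemoattractants and nucleotides mostly rose. C3ar1, the receptor for complement C3a, stood at -7.27 and -6.85 at 0 h and 1.31 and 1.10 at 24 h, a rise of at least 92.4-fold. Ltb4r1, the leukotriene B4 receptor, rose at least 134-fold, P2ry2 at least 90.1-fold and Hcar2 at least 88.4-fold. Cxcr4, the receptor that holds B cell precursors in the marrow, stood at 0.16 and 0.06 at 0 h and -3.19 and -3.05 at 24 h, with both arrays at 24 h below both at 0 h, and P2ry10, a lymphocyte receptor, fell by 2.18. In all 15 of 22 rose (68.2%, against 14.1% of all genes tested) and 2 fell (9.09%, against 13.1%). Integrins rose in 10 of 20 cases, with Itgb7 up 102-fold, Itgal (the LFA-1 α chain) up 15-fold and Itgax (CD11c) up at least 28-fold. Itgam, which encodes the macrophage marker CD11b, stood at 1.10 and 1.17 at 0 h and 1.47 and 1.52 at 24 h on the probe that stands for the gene, a change of 0.36 ± 0.11 that was not called. That probe holds a cytosine-adenine repeat of 20 bases, a class of probes described at the end. The other kept probes of Itgam, looked up after the values were seen, were both called higher, 1 at -5.34 and -5.37 at 0 h and -4.03 and -4.0 at 24 h (1.34 ± 0.19) and 1 at -1.65 and -4.06 at 0 h and -0.27 and -0.46 at 24 h (2.49 ± 0.74). The probes of Itgam thus disagree on the call.

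Secreted products rose in large part. Of 11 chemokines tested, 7 rose and 1 fell. Ccl9 stood at 2.00 and 1.97 at 0 h and 7.39 and 7.29 at 24 h and rose 40.7-fold, and Ccl7 rose at least 27.9-fold, whereas Ccl5 (0.14) was not called. Ccl25, a thymic chemokine, fell by 2.08, although another of its probes read -0.17. The neutrophil attractants Cxcl1, Cxcl2 and Cxcl3 were not well above background. Of 24 cytokines 14 rose. Il1rn, the natural antagonist of interleukin-1, rose at least 231-fold beside Il1b, Tnfsf14 (LIGHT) rose at least 89.1-fold and Spp1 (osteopontin) at least 27.8-fold. The exception was Pdgfb, a growth factor for stromal cells, which stood at 2.79 and 2.74 at 0 h and -2.13 and -2.05 at 24 h, a 28.9-fold fall. Il10, Il12a and Il12b were dim throughout.

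Proteases that cut the extracellular matrix, with their inhibitors, rose in 19 of the 20 cases tested and fell in none. That is 95%, against 14.1% of all genes tested, and 9 further members of the list were dim. Members dim at 0 h entered only through groups where they were bright, which favoured a rise in this count. With such genes held to their bounds the median change was 2.80 in place of 3.59. Mmp12, the macrophage elastase, stood at -7.32 and -6.99 at 0 h and 1.01 and 1.04 at 24 h, a rise of at least 81.6-fold. Mmp8 stood at -7.59 and -7.35 at 0 h and 4.67 and 4.69 at 24 h, a rise of at least 1028-fold. Both genes were below background on both arrays at 0 h and lie in 1 cluster on chromosome 9 in which 6 neighbouring tested genes rose. Adam8, a membrane protease of activated leukocytes, rose 103-fold. Candidates for a printed promoter were 169 genes chosen by the naming rule, called higher and with a usable window, taken in order of fitted change. The search, on both strands, was for the C/EBP letters TTGCNNAA together with the PU.1 letters GAGGAAGT. Mmp8 and Mmp12 were the first to hold both, where the search stopped, and their promoter stretches are shown. They are the 250 bases before the RefSeq start on the forward strand of GRCm38.p6, at chr9:7558179-7558428 for Mmp8 and chr9:7344147-7344396 for Mmp12, with the matches in capitals (PU.1 first, C/EBP nearer the start); they were chosen after the values were seen, because none of the 10 largest rises with a window held the C/EBP letters.
Mmp8: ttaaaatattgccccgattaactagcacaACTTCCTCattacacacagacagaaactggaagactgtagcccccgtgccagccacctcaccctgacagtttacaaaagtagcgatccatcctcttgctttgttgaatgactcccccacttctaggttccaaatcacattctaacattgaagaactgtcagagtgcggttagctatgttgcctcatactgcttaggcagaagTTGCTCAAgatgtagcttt
Mmp12: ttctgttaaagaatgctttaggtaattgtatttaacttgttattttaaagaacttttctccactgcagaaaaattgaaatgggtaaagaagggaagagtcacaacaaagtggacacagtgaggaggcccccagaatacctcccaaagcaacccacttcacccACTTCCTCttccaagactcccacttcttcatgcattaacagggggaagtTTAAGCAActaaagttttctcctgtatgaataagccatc
In Mmp8 the C/EBP match ended 11 bases before the start and in Mmp12 31 bases before it, and the PU.1 matches ended 213 and 80 bases before it.

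Across the 9747 tested genes with a promoter window, the C/EBP letters were found in 17.1% of the 287 windows of genes that rose at least 8-fold, 6.83% of the 249 windows of genes that fell at least 8-fold and 7.91% of the 6878 windows of genes not called. Over all 1517 windows of genes called higher, whatever the fold, the shares were 10.3% for C/EBP, 4.55% for PU.1 and 7.51% for AP-1. The PU.1 letters were found in 8.01%, 1.61% and 3.1% of the same groups, and the AP-1 letters TGANTCA in 12.2%, 2.81% and 4.83%. The letters GAAANNGAA of the interferon response were found in 14.3%, 9.64% and 7.01%. Over all 27025 windows of this length the shares were 10.8% for C/EBP, 3.28% for PU.1, 7.93% for AP-1 and 8.57% for the interferon letters. The windows of strongly rising genes had a median GC content of 54.7%, those of strongly falling genes 58.3% and those of genes not called 60.3%, and letter matches move with base composition; its part in these shares was not tested. A match is a description of the sequence and not a binding site.

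Complement, clotting and lipid mediator genes rose in 8 of 16 cases. Cfp (properdin, which stabilises the alternative complement convertase) stood at 0.55 and 0.48 at 0 h and 7.43 and 7.31 at 24 h, a 116-fold rise. F5, clotting factor V, rose at least 183-fold, Tbxas1 (thromboxane synthase) at least 109.9-fold and Ptgs2 (cyclooxygenase-2) at least 44.2-fold, while C3 (0.78) and Ltc4s (0.51) were not called and the C1q genes were dim. Of 26 granule proteins 13 passed the filter and 10 rose. S100a8, a subunit of calprotectin, stood at -5.81 and -7.04 at 0 h and 2.26 and 2.30 at 24 h and rose at least 195-fold, while of the primary granule genes Ctsg was below background at 0 h and not called, and Mpo did not pass the filter. S100 proteins, annexins and galectins rose in 15 of 20 cases: S100a4 47.3-fold, Anxa1 16.3-fold and Anxa2 at least 59.8-fold. Lgals9 fell by 1.22.

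The machinery that kills and digests ingested particles rose in part. Cybb, the catalytic subunit gp91-phox of the NADPH oxidase, stood at 0.51 and 0.30 at 0 h and 3.91 and 3.72 at 24 h, a 10.7-fold rise. Its partners Ncf1 (p47-phox) and Cyba (p22-phox) rose 33.9-fold and 3.73-fold, and the shared GTPases Rac1 (0.50) and Rac2 (0.16) were not called. Nos2 (0.23) was not called and Arg1 was dim. Among lysosomal genes 16 of 33 rose and none fell, with a median of 1.00. Ctsc, which activates granule proteases, stood at 2.03 and 2.16 at 0 h and 6.87 and 6.78 at 24 h, a 26.5-fold rise, and Ctsd, the aspartic protease, rose 17.4-fold. The 17 lysosomal genes not called ranged down to -0.97 (Gla) and up to 1.00 (Hexa). All 17 V-ATPase subunits tested, which pump protons into lysosomes, had positive changes of 0.27 or more, and 9 of them were called, led by Atp6v0a1 (15.4-fold). Slc11a1 (NRAMP1), which pumps iron and manganese out of phagosomes, rose 31.8-fold.

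Among genes of antigen presentation, those of class II included the largest rise. Cd74 stood at -1.41 and -1.17 at 0 h and 6.34 and 6.06 at 24 h, separated by over 7 log2 units. Cd80, a co-stimulatory ligand, rose 57.2-fold and Cd40 at least 22.1-fold, while H2-Ab1 (0.36) was not called and H2-Aa and Ciita were dim. Of 13 class II genes 8 rose; of 20 class I genes 6 rose, led by the endoplasmic reticulum chaperones Pdia3 (3.01-fold) and Calr (2.65-fold), and B2m (0.65), H2-K1 (0.39) and Tap1 (0.07) were not called. The difference between class I and class II was not tested. Interferon-stimulated genes did not move as a block: 19 of 36 rose, 2 fell and 15 were not called. Ifitm6, Ifitm1 and Oas2 (at least 64-fold) rose steeply and Usp18 rose 15.3-fold. Ifit2 stood at -2.02 and -1.86 at 0 h and -4.40 and -4.43 at 24 h and Ifit1 at -2.77 and -2.80 at 0 h and -4.09 and -4.12 at 24 h, both lower at 24 h on both arrays, and Gbp2 was at -0.05. The call of Ifit1 was lost on the deposited table (-0.72) and with either normexp setting. Inflammasome genes Nlrp3 (at least 16.1-fold), Naip2 (8.35-fold) and Nlrc4 (6.01-fold) rose. Nlrp1a fell by 2.82 on the probe that stands for the gene, while another of its probes rose by 2.02.

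Most of the called genes of cell shape rose, and a few fell. Among 36 actin regulators 19 rose, with the capping protein Capg up 8-fold, the bundling protein Lcp1 up 5.06-fold and the cross-linker Flna up 6.58-fold (3.57 and 3.42 at 0 h and 6.27 and 6.16 at 24 h). Ezr and Rdx, of the ezrin family that ties actin to the membrane of lymphocytes, fell by 1.64 and 1.31, and Actb (0.39) and Cfl1 (0.40) were not called. Myo1f, a class I myosin of leukocytes, rose 33.9-fold. Stmn1 (stathmin, which takes apart microtubules in dividing cells) stood at 5.89 and 5.75 at 0 h and 1.79 and 1.71 at 24 h, a 16.8-fold fall. Ect2 and Racgap1, which act at the division furrow, fell 11.5-fold and 9.12-fold. Members of the Rab and endocytosis list rose in 9 of 21 cases and fell in none.

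B lineage genes fell unevenly. Rag2 stood at 1.81 and 1.71 at 0 h and -3.09 and -3.41 at 24 h, a 32.2-fold fall, and Rag1, its partner in the recombinase, at 1.60 and 1.60 at 0 h and -2.72 and -2.73 at 24 h, a 20.1-fold fall. Dntt, which adds untemplated nucleotides at immunoglobulin joins, stood at 2.45 and 2.29 at 0 h and -2.15 and -2.05 at 24 h. For these 3 genes both arrays at 24 h lay over 4 log2 units below those at 0 h. Il7r, the receptor for interleukin-7, fell 7.04-fold (-2.82 ± 0.07), and Igll1, a component of the surrogate light chain, fell by 1.39. The other surrogate chain gene Vpreb1 (-0.91) and the receptor chains Cd79a (-0.37) and Cd79b (-0.55) were not called. Altogether 10 of 19 identity markers fell. Bst1 and Cd38, ectoenzymes that use NAD, rose 29.3-fold and 5.52-fold; both are also made by myeloid cells.

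Transcription factors of the B lineage fell in 15 of 24 cases and rose in none, with a median of -1.36. Lef1, a factor of the Wnt pathway expressed in early B cells, stood at 4.91 and 4.89 at 0 h and 1.54 and 1.49 at 24 h, a 10.4-fold fall. Bach2, which represses myeloid genes in B cells, fell 10.8-fold, Id3 13.4-fold and Bcl7a 15.9-fold. Ikzf1 (0.21), Runx1 (0.69), Ets1 (-0.60) and Ikzf3 (below background at 0 h) were not called. The 2 factors that define the lineage, Ebf1 and Pax5, were looked up after the values were seen: Ebf1 stood at 3.44 and 3.30 at 0 h and 0.79 and 0.64 at 24 h and Pax5 at -1.98 and -2.12 at 0 h and -3.38 and -3.47 at 24 h, falls of 6.27-fold and 2.58-fold. End-joining genes, which repair the breaks made by the recombinase, split: Hmgb2, a DNA-bending cofactor of the recombinase, fell 6.75-fold, Dclre1c (Artemis) rose 3.42-fold, and Prkdc (-0.85), Lig4 (-0.16) and Xrcc4 (0.64) were not called. Signalling genes downstream of the B cell receptor mostly did not fall. Of 20 tested 6 rose, among them Lyn (6.34-fold), Lat2 (40.6-fold) and the phosphatase Ptpn6 (2.81-fold), all of which serve myeloid receptors too; the adaptor Blnk fell 2.64-fold, and Syk (-0.20) and Btk (-0.18) were not called.

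Of the 15 largest falls, most belonged to genes of DNA synthesis and mitosis, although the first, that of the membrane protein Bves (89.9-fold), did not. Mcm10, which activates the replicative helicase (chr2:4911785-4911844), stood at 3.74 and 3.51 at 0 h and -2.26 and -2.18 at 24 h, a 57.5-fold fall. Tk1, thymidine kinase of the S phase (chr11:117676845-117676904), stood at 4.40 and 4.39 at 0 h and -1.31 and -1.31 at 24 h, a 52.2-fold fall. Both were high on both arrays at 0 h and low on both at 24 h. Others of the 15 largest falls with a role in the cell cycle were Exo1 (58.2-fold), Rad51ap1 (57.8-fold), the mitotic kinase Pbk (51.2-fold), the kinetochore proteins Kntc1 (50.9-fold) and Ska1 (43.3-fold), Aunip (44.9-fold), Rrm2 (44.6-fold), the linker histone H1f1 (43.2-fold), Ticrr (42.5-fold) and the catalytic subunit of DNA polymerase ε, Pole (37.6-fold). Outside the cell cycle were Bves (1.89 and 1.74 at 0 h and -4.83 and -4.53 at 24 h; 1 of the 2 arrays at 24 h was above background) and the membrane protein Megf10 (37.8-fold). Among genes that fell to below background the highest bounds were those of the Fanconi anaemia proteins Fanci (at least 45.9-fold) and Fancb (at least 37.9-fold), of Umod (at least 37.7-fold), Oip5 (at least 32.4-fold), Plb1 (at least 30.8-fold), Kif4 (at least 30.8-fold), Fsip2l (at least 30.2-fold), Kif2c (at least 29.4-fold), Rad54b (at least 28.2-fold) and Kif15 (at least 25.1-fold).

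Most genes of each complex fell. Of 45 genes of replication origins and forks all were tested, 40 fell and none rose, with a median of -3.07; Prim1, the primase, fell 28.4-fold. The 5 not called were the origin subunits Orc3 (-0.74), Orc4 (-0.55) and Orc5 (-1.0), Gins3 (-0.19) and Timeless (0.76). Of 28 genes that supply nucleotides 21 fell: Rrm2, the inducible subunit of ribonucleotide reductase, stood at 5.79 and 5.63 at 0 h and 0.32 and 0.14 at 24 h, and Dut fell 22.5-fold. Both replicates of Rrm2 at 24 h were below both at 0 h by over 5 log2 units. Tyms (-0.28), Mthfd2 (-0.21) and Atic (-0.33) were not called, and Samhd1, which destroys deoxynucleotides in myeloid cells, was at 0.91 ± 0.05.

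Mitotic cyclins, kinases and checkpoint genes fell in 31 of 32 cases, with Bub3 (-0.64) the one not called. Ccnb1, cyclin B1, stood at 4.21 and 4.11 at 0 h and -0.58 and -0.53 at 24 h, a 26.2-fold fall that left 3.82% of the 0 h level, and Melk, Ccnf and Fbxo5 fell 30.4-fold, 26.9-fold and 26.9-fold. Kinesins and centromere proteins fell in 32 of 34 cases, with the lowest median of all 75 lists (-4.12); Kif11, the motor that separates spindle poles, fell 36-fold, and Nuf2 of the kinetochore fell 31.8-fold. Cenpf (-4.38 and -4.96 at 0 h and -6.71 and -6.95 at 24 h) was dim at 24 h and not called, and Cenpl was at -0.70. Condensin and cohesin genes fell in 18 of 24 cases. Sgo1, which protects centromeric cohesion, fell 31.1-fold, whereas the loading and release factors Nipbl (-0.01) and Wapl (0.31) were not called.

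The promoter stretch of Kif15, a spindle motor that stood at 0.03 and -0.02 at 0 h and -5.19 and -4.71 at 24 h, is shown because it holds 2 kinds of letters known from cell cycle promoters, the E2F letters (TTTGGCGC or TTTCGCGC) and the cell cycle homology region, TTTGAA, searched on both strands. It was chosen after the values were seen, because none of the 8 largest falls with a window held the E2F letters. Among 98 candidates, which were genes chosen by the naming rule, called lower and with a usable window, it was the only stretch to hold both kinds. It covers 250 bases before the RefSeq start, forward strand, chr9:122950831-122951080 of GRCm38.p6, with the matches in capitals (a TTTGAA match far from the start, then the E2F match followed at once by the second TTTGAA match).
Kif15: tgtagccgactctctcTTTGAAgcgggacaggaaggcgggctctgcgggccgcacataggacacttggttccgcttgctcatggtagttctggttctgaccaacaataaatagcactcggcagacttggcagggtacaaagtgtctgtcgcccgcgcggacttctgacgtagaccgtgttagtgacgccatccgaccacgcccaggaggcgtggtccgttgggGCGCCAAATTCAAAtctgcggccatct
The E2F letters were found in 6.83% of the windows of genes that fell at least 8-fold, in 0.697% of those that rose at least 8-fold and in 1.32% of those not called. The TTTGAA letters were found in 34.9%, 14.6% and 11.8%, and the CCAAT letters in 59%, 32.8% and 38.2%. Over all windows the shares were 0.833%, 18.1% and 37.9%.

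Of 37 DNA repair genes 33 fell, and Ung and Rad51c, the 2 that rose (1.56 ± 0.08 and 1.41 ± 0.13), both stand on probes that hold a guanine-thymine repeat. Of 17 E2F and retinoblastoma genes 9 fell. E2f2 and E2f8 fell 8.31-fold and 8.29-fold, and Rbl1 (p107) fell 8.96-fold. E2f7 fell 32.5-fold on its brightest probe, for which 1 of the 2 arrays at 24 h was above background, and another probe read 0.25. Rb1 (0.02), Rbl2 (-0.42), E2f3 (-0.66) and E2f6 (-0.90) were not called. Brakes on the cycle rose: Cdkn2b (p15) stood at 1.54 and 1.50 at 0 h and 4.58 and 4.65 at 24 h, an 8.56-fold rise with no overlap, and Btg2 and Gadd45b rose 6.74-fold and 13.5-fold. Cdkn1a (p21) rose 13.8-fold on its brightest probe and read -0.08 on another. That other probe stood at -4.76 and -4.49 at 0 h and -4.45 and -4.95 at 24 h. These levels lie near the lowest signal that counted as well above background on these arrays. Cdkn2c (p18) fell 4.16-fold, Ccne1 fell 3.25-fold, and Cdkn1b (p27, 0.60) and Trp53 (-0.80) were not called.

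Histone genes fell in 15 of 22 cases. H2ac4 stood at 7.43 and 7.30 at 0 h and 2.13 and 2.17 at 24 h, a 37.2-fold fall, and H1f5 and H3c14 fell 33.3-fold and 24.4-fold. H2bc4 went the other way and stood at -2.88 and -2.95 at 0 h and 0.64 and 0.75 at 24 h, a 12.2-fold rise, and so did the linker histone H1f2 (5.42-fold). The replacement histones H3f3a (0.94) and H3f3b (0.01), which are made outside the S phase, were not called. The labelling was primed on poly(A) tails, which transcripts of most replication histones lack; its part in these values was not tested.

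Genes of growth fell in part. Myc stood at 3.32 and 3.24 at 0 h and 1.88 and 1.83 at 24 h, a 2.68-fold fall, while its antagonists Mxd4 and Mxd1 rose 7.29-fold and 3.75-fold, Mxd3, of the same family, fell at least 11.3-fold to below background, and Max was at 0.06. Of 10 genes of the MYC and MAX network 5 rose and 2 fell. Ribosome biogenesis genes fell in 21 of 32 cases: Gnl3 (nucleostemin) fell 4.04-fold, the pseudouridine synthase Dkc1 3.86-fold and the RNA polymerase I subunit Polr1b 3.73-fold. Heatr1 was the only one that rose (3.21-fold). Of the proteins of the cytosolic ribosome itself none of 38 was called by limma; 4 had an unadjusted p under 0.05 and 4 an adjusted p under 0.05 at a change below 2-fold. Their median was -0.05, and they ranged from -0.63 (Rpl22l1) to 0.10 (Rpl32). None of 27 proteasome subunits was called either, with a median of 0.08; 12 had an unadjusted p under 0.05 and 9 an adjusted p under 0.05 at a change below 2-fold. Mitochondrial ribosomal proteins fell in 5 of 31 cases, translation factors and tRNA synthetases in 2 of 33, and spliceosome genes in 10 of 36, led by Srsf7 (2.79-fold). The shares of the last list (median -0.83) and of ribosome biogenesis lie above the 13.1% of all genes called lower; that of mitochondrial ribosomal proteins (16.1%) lies near it, and those of translation factors and the cytosolic ribosome lie below it.

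Metabolic genes moved unevenly. Of 29 glycolysis genes 13 rose and 3 fell. Hk3, the hexokinase of myeloid cells, stood at -6.83 and -6.76 at 0 h and 1.28 and 1.17 at 24 h and rose at least 93.8-fold, Eno2 rose 15-fold and Pfkfb4 6.86-fold, while Pfkfb1 fell 3.49-fold and Gapdh (0.17), Ldha (0.12) and Eno1 (0.46) were not called. Aldoc fell by 1.09, a call lost without any of 3 single arrays (-0.61 without the first array at 24 h). Both enzymes that draw NADPH from the pentose phosphate pathway rose: G6pdx stood at 2.99 and 2.98 at 0 h and 6.29 and 6.21 at 24 h, a 9.63-fold rise, and Pgd rose 6.83-fold. The non-oxidative enzymes Tkt (0.01), Taldo1 (0.64) and Rpia (0.21) were not called. Srxn1, sulfiredoxin, rose 88.4-fold, Slc7a11, the cystine importer, rose at least 9.14-fold, and Gclc, which starts glutathione synthesis, fell 2.61-fold. Respiration was nearly flat, with 31 of 34 genes not called; Acod1, which makes itaconate, rose at least 1.98-fold and Idh3a fell 2.05-fold. Without the second array at 24 h the change of Idh3a was -1.0 and was no longer called. Sterol and fatty acid synthesis was likewise not called in 26 of 29 genes. Lipid handling rose in 9 of 18 cases: Abca1, the cholesterol exporter, stood at -1.85 and -1.79 at 0 h and 2.19 and 2.25 at 24 h, a 16.5-fold rise, Plin2, which coats lipid droplets, rose 9.49-fold, and Dgat2, which makes triglyceride, rose 34.6-fold, while Fabp5 fell 4.94-fold.

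Of 28 chaperones and genes of the unfolded protein response 10 rose and 4 fell, with a median of -0.07. Among those of the secretory pathway, Edem1 rose 8.48-fold, Xbp1, the factor of the unfolded protein response, rose 3.4-fold (3.48 and 3.47 at 0 h and 5.24 and 5.24 at 24 h), and Sdf2l1 rose 3.24-fold. The mitochondrial chaperonin Hspd1 fell 2.77-fold and the cytosolic Hsph1 2.1-fold, and Hspa8 (-0.06) and Hsp90ab1 (-0.33) were not called. Hsph1 read -0.99 without the second array at 24 h, short of 2-fold. Ddit3 and Trib3 (-0.33), which respond to prolonged stress, were not called either.

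Genes that copy DNA methylation fell with the cell cycle genes. Uhrf1, which finds hemimethylated DNA, stood at 4.42 and 4.40 at 0 h and 0.56 and 0.52 at 24 h, a 14.7-fold fall, Dnmt1, the maintenance methyltransferase, fell 7.41-fold, and the remodeller Hells fell 22.2-fold. Tet2, the dioxygenase targeted in the other line and looked up after the values were seen, stood at -1.23 and -1.36 at 0 h and -0.03 and 0.01 at 24 h and rose 2.44-fold, and Tet1 (0.17), Tet3 (0.51) and the glycosylase Tdg (-0.55) were not called. Of 36 Polycomb, SWI/SNF and histone modifying genes 10 fell and 2 rose: the H3K9 methyltransferase Suv39h1 fell 7.28-fold, Cbx5 (HP1α) 6.39-fold and Ezh2 5.51-fold. Smarca4 (-0.72), Bmi1 (-0.19) and Hdac1 (0.16) were not called. In the BCL2 family 8 of 14 rose and they include members of both kinds, the survival genes Bcl2a1d (8.51-fold) and Mcl1 (3.13-fold) and the killers Bcl2l11 (BIM, 4.43-fold) and Bmf (3.91-fold). Bok stood at 4.33 and 4.22 at 0 h and 0.55 and 0.54 at 24 h, a 13.3-fold fall. Bax (0.44) and Bak1 (0.50) were not called.

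**Figure D3:**
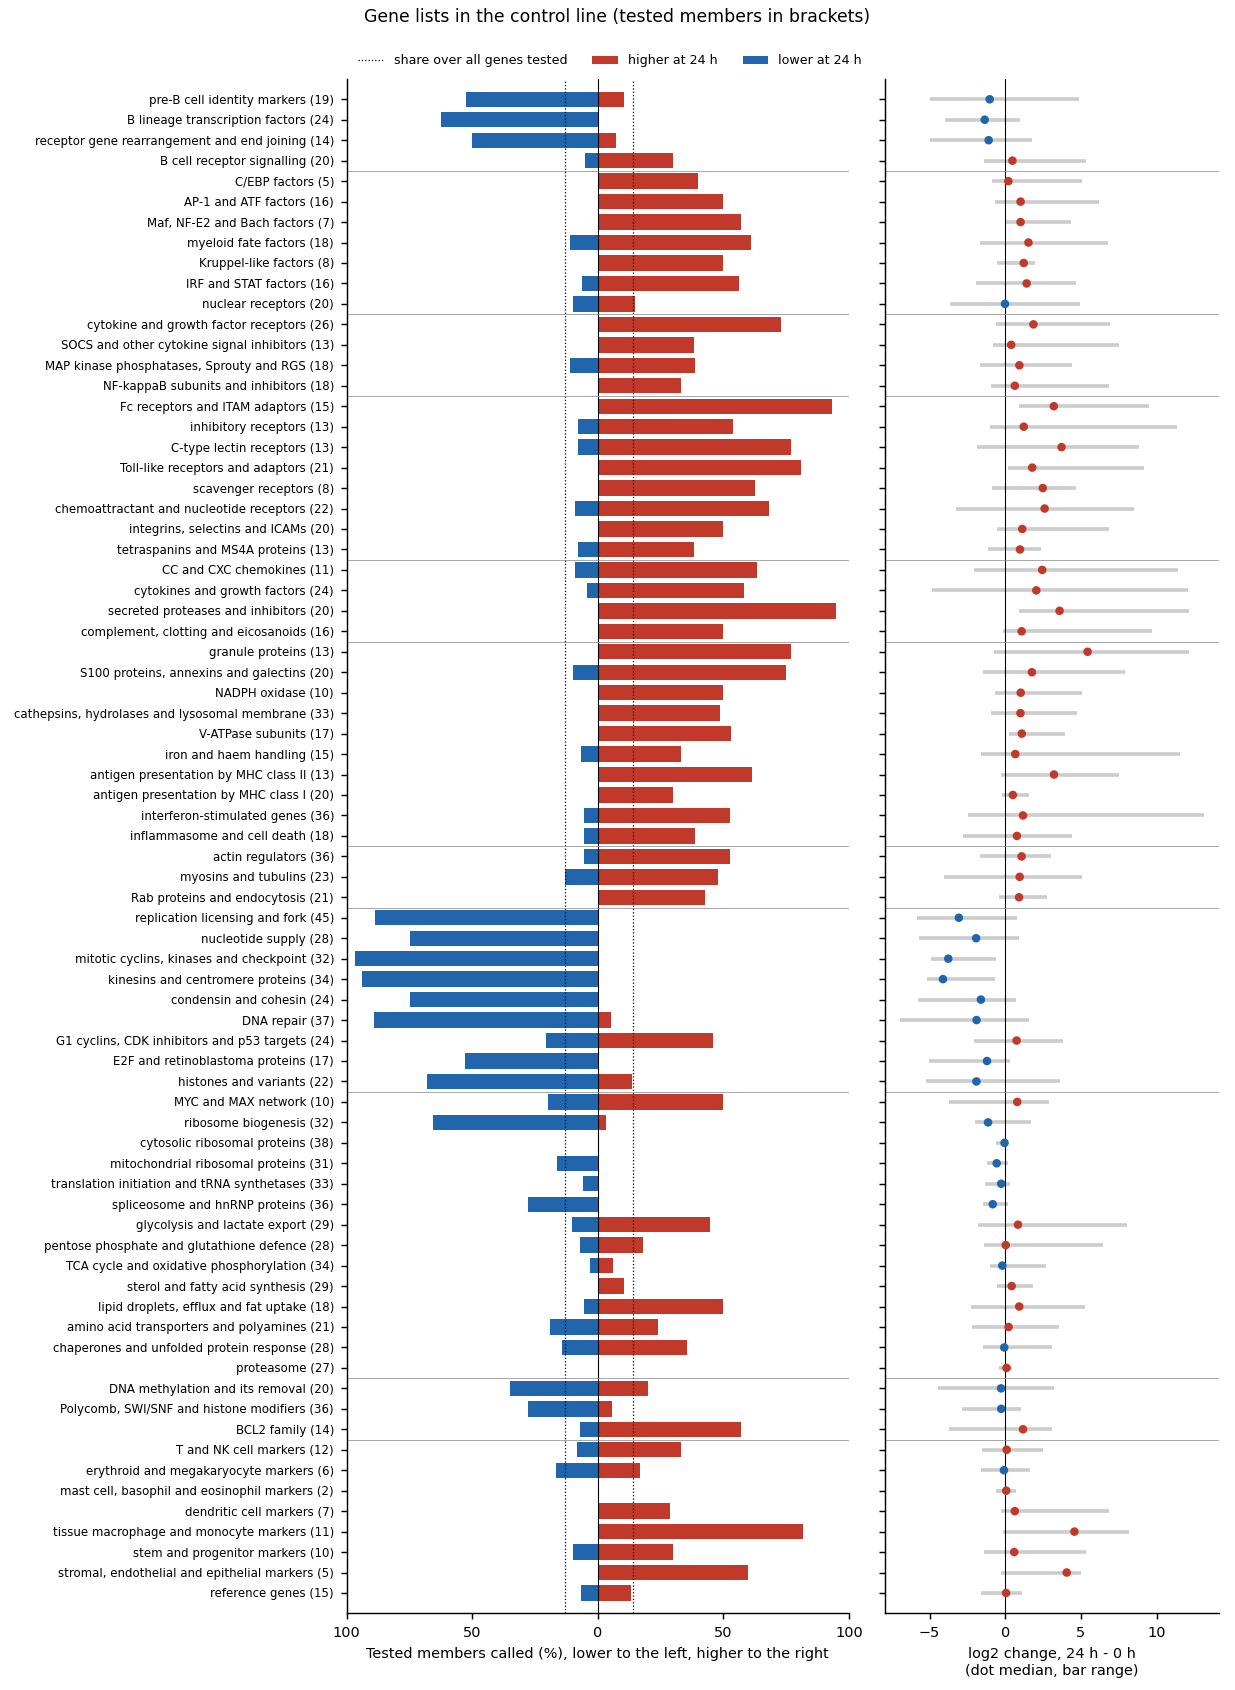
Left, the share of tested members of 74 of the 75 gene lists called lower (blue, to the left) and higher (red, to the right) at 24 h, with dotted lines at the shares over all genes, 13.1% and 14.1%. Right, the median (dot) and range (bar) of the log2 change in each list; most lists of cell division sit on the left, with medians down to -4.12 but 0.75 for G1 cyclins and inhibitors, those of phagocyte surface and secretion on the right, and cytosolic ribosomal proteins at -0.05.

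Within families of related genes, members moved differently. Ezh2, the Polycomb methyltransferase of dividing cells, fell by 2.46 while Ezh1, its counterpart in resting cells, was at -0.03 ± 0.07. Top2a stood at 3.16 and 3.02 at 0 h and -1.68 and -1.79 at 24 h and fell by 4.82 while Top2b was at -0.31 ± 0.07. Tk1 fell by 5.71 while the mitochondrial kinase Tk2 was at 0.56 ± 0.06. Lamins were exchanged: Lmnb1 stood at 3.54 and 3.14 at 0 h and 0.18 and 0.84 at 24 h and fell 7.11-fold, and Lmna, the A-type lamin of differentiated cells, stood at 1.50 and 1.42 at 0 h and 4.34 and 4.19 at 24 h and rose 6.97-fold, without overlap in either gene. Lmnb2 was at -0.83 ± 0.23. Without the second array at 24 h Lmnb2 was called lower at -1.04.

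In other families, calls in both directions were seen among β-tubulins. Hexokinases Hk1 (-0.02 ± 0.15) and Hk2 (0.99 ± 0.18) were not called beside Hk3. With the mean of all kept probes Hk1 was called higher at 1.43. Phosphofructokinase Pfkm fell 2.03-fold, while Pfkl (0.67 ± 0.07) and Pfkp (0.53 ± 0.07) were not called. The call of Pfkm was lost without the first array at 0 h (-0.95) or the second at 24 h (-0.99), and Hk2 was called at 1.06 without the second array at 0 h or the first at 24 h. Tubb5 fell 2.17-fold, Tubb2b rose 2.4-fold and Tubb6 rose 13.1-fold, and with the mean of all kept probes Tubb2b, at 1.0, was no longer called. Ccnd1, cyclin D1, stood at 3.82 and 3.76 at 0 h and 6.19 and 6.12 at 24 h and rose 5.13-fold although the cyclins of later phases fell, and Ccnd3 was at -0.43 ± 0.08. E2f1 fell 2.31-fold, and the repressor-type E2f4 (-0.78 ± 1.13) and E2f5 (-0.78 ± 0.14) were not called; the error of E2f4 is too wide to place it. H2az1 fell 3.17-fold while Macroh2a1 was at -0.36 ± 0.10. Differences between family members were not tested against each other, and levels are not compared between them.

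**Figure D4:**
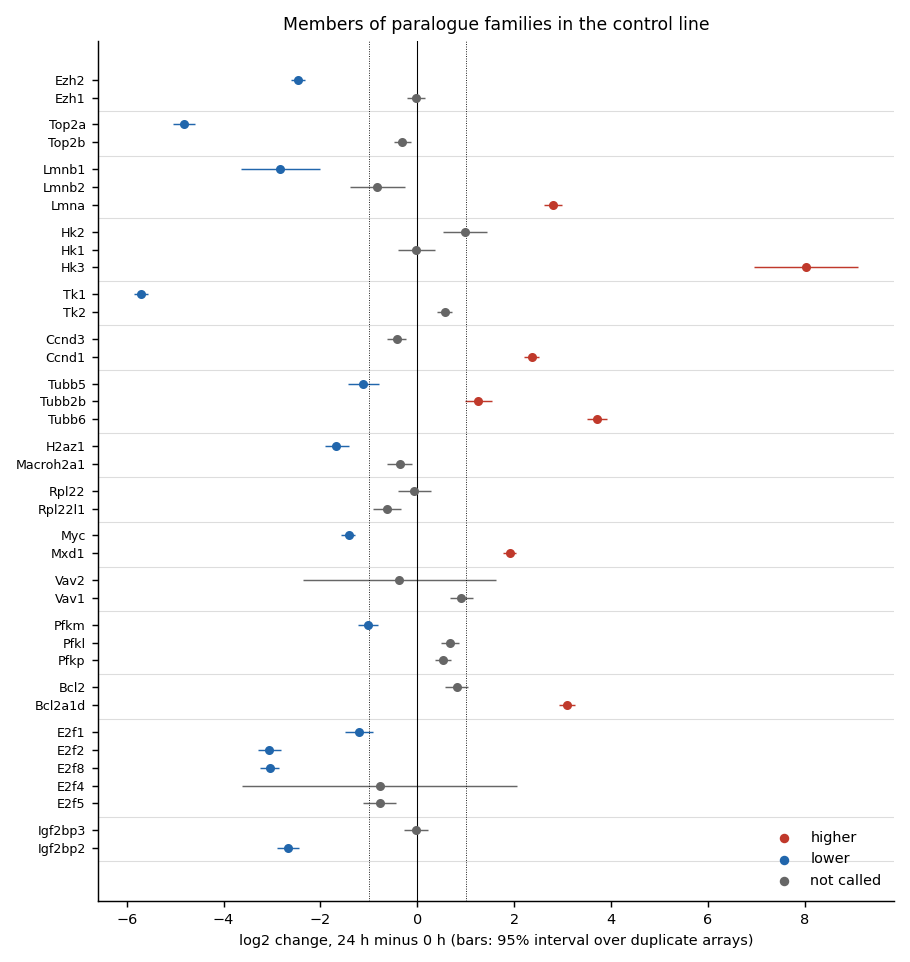
Log2 change (24 h minus 0 h) with the 95% interval over duplicate arrays for tested members of 15 families, with dotted lines at 2-fold. In the families of Ezh2, Top2a, Tk1 and the lamins, 1 member fell (Ezh2 -2.46, Top2a -4.82, Tk1 -5.71, Lmnb1 -2.83) while a relative was near 0 or rose (Ezh1 -0.03, Top2b -0.31, Tk2 0.56, Lmna 2.80).

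Called genes were also neighbours on the chromosomes. Among 11624 named genes with a position in mm9, 37 stretches held 4 or more neighbouring tested genes called in the same direction, 27 higher and 10 lower, and the longest held 8 genes. These stretches were picked by their values and are a description. On chromosome 11, 8 genes from Gprc5c through the Cd300 family, paired activating and inhibitory receptors of myeloid cells, rose by 1.59 to 7.30 (chr11:114733870-114977599). Also on chromosome 11, Ccl9, Ccl6, Ccl3, Ccl4 and 3 Wfdc genes rose by 2.32 to 9.99 (chr11:83388223-83566087). On chromosome 6, C3ar1, Necap1 and 5 Clec4 lectin genes rose by 2.41 to 8.86 (chr6:122798222-123232937). The Mmp cluster on chromosome 9 (chr9:7282762-7581387) rose by 4.06 to 12.15 and the Ifitm cluster on chromosome 7, with its neighbour Pgghg, by 1.09 to 13.15 (chr7:148133339-148201773). Except for the Ccl9 stretch, whose upper end is Ccl6, the upper ends of these ranges are fitted values of genes dim at 0 h.

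Some stretches joined functionally related receptors and ligands. Ifnar2, Il10rb, Ifnar1 and Ifngr2, the chains of the interferon and interleukin-10 receptors, rose together with Tmem50b by 1.37 to 2.71 (chr16:91394044-91574824). Ltb, Tnf and Lta, cytokines of the tumour necrosis factor family, rose with Aif1 and Lst1 by 1.38 to 4.25 (chr17:35307959-35340334). Among falling stretches, 8 histone genes from H2bc14 to H4c17 fell by between -5.06 and -1.56 (chr13:21814057-21904019) and 6 from H2bc3 to H2ac1 by between -5.43 and -1.62 (chr13:23838639-24026527). Another falling stretch held Gp2, Umod, Pdilt, Thumpd1 and Eri2 (chr7:126586058-126927905), with changes between -7.13 and -1.12.

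Probes with a repeat of guanine and thymine moved together whatever their gene. Of 108 kept probes whose 60 bases hold an uninterrupted guanine-thymine repeat of at least 12 bases, 89 were called higher and none lower, with a median change of 1.41. The share called rose with the length of the repeat: 20 of 35 probes with 12 to 15 bases, 17 of 21 with 16 to 19, and all 52 with 20 or more were higher. Those 52 probes differed little from each other, with a median change of 1.44, an SD of 0.17 and a range of 1.14 to 1.81. Probes with 8 to 11 bases of the repeat had a median of 0.01, with 20 higher and 12 lower of 121. The complementary repeat did not do this: of 47 kept probes with a cytosine-adenine repeat of at least 12 bases, none was higher and 5 were lower, with a median of -0.52. Guanine-adenine repeats were fewer: of 23 kept probes with at least 12 bases 9 were higher and none lower, and of the 9 with at least 16 bases 8 were higher.

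**Figure D5:**
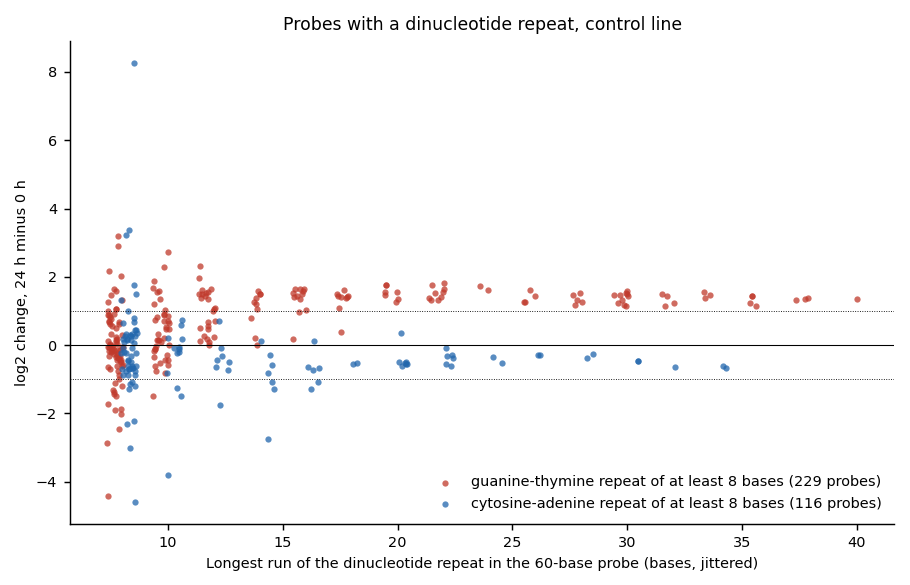
Log2 change (24 h minus 0 h) of each kept probe against the length in bases of its longest guanine-thymine (red) or cytosine-adenine (blue) repeat, for repeats of 8 bases and more, with dotted lines at 2-fold. From 20 bases on, all red probes lie between 1.14 and 1.81 and the blue probes mostly just below 0.

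The repeat probes stood for 105 genes, 87 of them called higher, which is part of the 2281. The other kept probes of those genes, 44 in all, gave a median of 0.05, with 9 higher and 11 lower. In 13 genes 1 probe was called higher and another lower, and in 9 of these the rising probe carried the repeat. Stretches of 30 bases from the probes of Luc7l2, Wdr89 and Mtfr2 show the contrast, with the repeat in capitals. Each is read from the array's own probe sequences, 5′ to 3′ and the probe's position is given in mm9.
Luc7l2 probe at chr6:38559052-38559111, change 1.14: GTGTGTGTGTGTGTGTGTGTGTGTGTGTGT
Luc7l2 probe at chr6:38558870-38558929, change -1.18: gcctatagagttggaagttgaacagctgtt
Wdr89 probe at chr12:76731767-76731826, change 1.52: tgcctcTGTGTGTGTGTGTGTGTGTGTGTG
Wdr89 probe at chr12:76732868-76732927, change -1.99: ttggttatacagcatcagactgtttagtcg
Mtfr2 probe at chr10:20080996-20081055, change 1.45: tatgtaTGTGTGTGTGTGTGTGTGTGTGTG
Mtfr2 probe at chr10:20073205-20073264, change -3.71: tgattatgaacttagggttccatcttttgc
For all 3 genes the probe with the repeat read higher at 24 h and the probe without it read lower. With these probes left out, an alternative chosen after the values were seen, 2199 genes were higher and 2130 lower of 16068, and 8 genes were called the other way. Of the list members described above, Il15ra, Rad51c and Ung stand on such probes, and what the shared rise of these probes measures was not tested.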

How the data were processed

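RNA from the control line was hybridised to 4 of 8 one-colour Agilent mouse arrays (Cy3, primed on poly(A) tails per the labels' protocols). Per the file headers, the spot intensity was extracted with Feature Extraction 10.7.3.1 (protocol GE1_107_Sep09, design 026655, build mm9), with spatial and multiplicative detrending switched on. The authors' deposited value table holds log2 values with a median of 6.84 in every column; the submitters' processing notes name limma, with no version given in the sources used here. Normexp correction (offset 50) with quantile normalization returned that table, which serves as an alternative.

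Levels were log2 intensity minus log2 of the array's 75th percentile. Outlier spots were left out and spots of a probe averaged. Probes entered (20306 of 39429) where both arrays of any of the 4 groups marked them well above background, and the brightest kept probe stood for its gene. A gene dim at one time thus entered only through groups where it was bright, which weights the list counts toward change. Accessions named 11657 genes through RefSeq's list, symbols 546 and synonyms 82, while 3860 kept the file's name. limma 3.58.1 (R 4.3.3) fitted 4 group means to all 8 arrays, with 4 residual and 1.51 prior degrees of freedom; a gene was called at an adjusted p under 0.05 (Benjamini-Hochberg over 16145 genes, 2-sided) and at least 2-fold. The code was tested on simulated data. The number of arrays limits the precision.

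The text names the 15 largest rises and falls among named genes measured at both times, the 10 largest bounds each way, up to 4 called members of a list in its main direction and up to 2 in the other, fixed paralogue families, cell type markers and uncalled list members. The comparison, the 75 lists (1753 genes, of which 1486 were tested, 260 dim and 7 not matched) and the tests were chosen with earlier results of these data known. Replicate numbers mark slides that each hold all 4 groups; same-numbered arrays deviated together (correlation of their deviations from the group means 0.41), and a fit with the slide as a block is an alternative. Promoters are RefSeq windows on GRCm38.p6 from 250 bases before to 50 after the start. Some genes that the rule names are not reported here.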

Additional observations from a re-analysis of the deposited data

How the results depend on the processing

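The counts of 2281 genes higher and 2121 lower stayed within 1.5 times under each other background correction, scaling, filter, probe rule and left-out array tried. They were 1766 and 1699 on the deposited table, 2093 and 2485 with median scaling, 1890 and 1668 of 13921 genes when only probes well above background on all 4 control arrays were used, and between 2245 and 2293 higher and between 2045 and 2117 lower without one control array. With the replicate block they were 2316 and 2145, and no named gene changed its call. The rule of the call moved them: without a fold threshold 4958 genes were higher and 5024 lower, and at 4-fold 854 and 735. Of 350 called genes among the 369 followed, 324 kept their call under each of 14 alternatives that refit the genes, where they had a value; the one without probes holding a GT run (2199 and 2130 of 16068 genes) was chosen after seeing the data. E2f7 read 0.25 with only probes well above background on all 4 control arrays, because another probe then stands for it. Leaving out single arrays ended the calls of Mitf, Lcn2, Aldoc, Itgb3, Cd4 and S100a16 among others; Itgb3 then read 4.60 to 4.70. For genes dim at one time the signal over background limits the fold, and no value speaks to the spread between cultures.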

Other observations

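Genes in other groups than those listed also moved, and the following were picked after their values were seen. Genes of the circadian clock did not move one way. Nr1d1 (REV-ERBα), a repressor of the clock, stood at -0.48 and -0.64 at 0 h and -3.90 and -3.92 at 24 h and fell 10.2-fold, and its relative Nr1d2 fell at least 4.69-fold to below background. Arntl (BMAL1), which Nr1d1 represses in textbook accounts, stood at 0.92 and 0.80 at 0 h and -1.04 and -1.08 at 24 h and fell 3.77-fold, and Dbp, a clock output gene, stood at 0.99 and 1.02 at 0 h and -0.95 and -0.99 at 24 h and fell 3.93-fold. In all 4 genes both arrays at 24 h lay below both at 0 h. Nfil3 (E4BP4), which competes with DBP for the same sites, stood at -1.94 and -2.04 at 0 h and 2.59 and 2.64 at 24 h and rose 24.3-fold, and Bhlhe40 (DEC1), another repressor of clock genes, rose 12.6-fold. Clock (0.28), Per1 (0.78) and Cry2 (0.55) were not called. With 2 times, 0 h and 24 h, these values hold no time course.

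Noncoding and imprinted genes fell in several cases. H19, an imprinted long noncoding RNA, stood at 8.47 and 8.32 at 0 h and 5.28 and 5.19 at 24 h, an 8.93-fold fall, and Igf2, its imprinted neighbour, stood at 2.28 and 2.14 at 0 h and 0.71 and 0.29 at 24 h, a 3.27-fold fall. Mir17hg, the host transcript of the miR-17 cluster, stood at -0.72 and -0.82 at 0 h and -3.36 and -3.45 at 24 h, a 6.22-fold fall, and Lockd, a noncoding transcript beside Cdkn1b, fell 9.38-fold. Schlafen genes split within 1 family: Slfn2 stood at -4.15 and -4.19 at 0 h and 2.77 and 2.57 at 24 h, a 115-fold rise, and Slfn8 rose 3.23-fold, while Slfn3 and Slfn9 fell 3.67-fold and 4.04-fold. The orosomucoids, acute-phase glycoproteins, rose together: Orm1 by at least 49.1-fold and Orm3 by at least 16.6-fold from below background, and Orm2 was above background on 1 of 2 arrays at 0 h (-4.96 and -7.19 at 0 h and 0.75 and 0.68 at 24 h). Whether probes of related genes in these families share signal was not tested.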
